A study of Mus musculus with 18 samples.

Results

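The transcripts of 10 proteins that build or control stress granules (G3bp1, G3bp2, Caprin1, Usp10, Ubap2l, Tia1, Tial1, Pabpc1, Atxn2, and Fmr1) were followed in dendritic cells (DCs) that moved through collagen or stayed in suspension. The 10 genes were chosen by name, as widely used stress granule components, out of 29875 genes in the count table. All 10 were found there and all 10 passed the filter on low counts, together with 13844 genes in total. The question was whether their RNA levels change under the conditions in which Dyrk3, a kinase known to dissolve stress granules, is higher.

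Stress granules are cytoplasmic condensates without a membrane that gather untranslated mRNA, small ribosomal subunits, and RNA-binding proteins when translation initiation stalls. They form when RNA released from polysomes is cross-linked by multivalent proteins, of which G3BP1 and G3BP2 are the central nucleators, and they dissolve again when stress ends. DYRK3 partitions into such condensates, and its kinase activity promotes their dissolution, so that an inactive kinase leaves the granules in place. The condensates themselves were not measured here, and RNA levels do not report on them.

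DCs were grown with GM-CSF from bone marrow of wild-type C57Bl6/J mice aged 8 to 12 weeks, and on differentiation day 8 all of them received lipopolysaccharide (200 ng/ml, 24 hours), a bacterial product that matures DCs. They were then cast into bovine collagen at 1.7, 2.6, 3.5, or 4.4 mg/ml in chambers with a source of CCL19, a chemokine that attracts mature DCs, and RNA was taken after 5 hours. Cells in the same chambers but without collagen formed the 2 suspension groups. Each of the 6 groups had 3 libraries, numbered 1 to 3, which makes 12 gel and 6 suspension libraries. For the suspension groups, titles and library names contradict each other on the presence of CCL19 in each replicate, so they are called here by their titles, "titled without CCL19" and "titled plus CCL19", and no CCL19 effect is read from them. All gels had a chemokine source, so collagen and any effect of CCL19 on the suspended cells cannot be told apart for whichever suspension group lacked it.

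Library totals ranged from 13062944 to 28059839 counts. Of the listed cell types, DC genes had the highest summed level, 15571 to 52435 CPM (counts scaled to library size by edgeR's TMM method). Counts in every library were found for 9 of 9 DC genes, but also for 7 of 7 macrophage and 9 of 9 neutrophil genes. Detection alone therefore does not separate these types. In collagen 1 of the 9 DC genes was lower. Of the other cell types, eosinophil genes differed most, with a summed level of 117 to 1339 CPM in suspension and 14 to 168 CPM in gels, and 7 of 7 tested were lower in collagen. Neutrophil genes summed to 634 to 9762 CPM in suspension and 1045 to 5174 CPM in gels, with 2 of 9 lower. Macrophage genes summed to 547 to 4764 CPM in suspension and 733 to 5599 CPM in gels with 0 of 7 past the test, basophil and mast cell genes to 71.1 to 252 CPM and 36.0 to 251 CPM with 1 of 7 lower, and T and B cell genes to at most 13.4 CPM. The part that these cells play in the differences given next was not tested, and in bulk RNA fewer cells of a type cannot be told apart from less RNA per cell.

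The 10 transcripts spanned a wide range of abundance. Per kilobase of the longest coding transcript, Pabpc1, the cytoplasmic poly(A)-binding protein, led with 129 ± 32.2 CPM (SD, n = 18) and exceeded every other member in all 18 libraries. Caprin1 (43.7 ± 16.2, SD, n = 18) and Ubap2l (36.6 ± 5.13, SD, n = 18) came next, but Caprin1 was above Ubap2l in only 11 of the 18 libraries, so their order was within the spread. The nucleators G3bp2 (16.5 ± 6.64 CPM per kilobase, SD, n = 18) and G3bp1 (16.0 ± 3.4, SD, n = 18) were likewise not separated, with G3bp2 higher in 7 of 18. Usp10 at 8.28 ± 2.11, Tial1 at 7.53 ± 2.30, and Atxn2 at 5.90 ± 2.65 CPM per kilobase (SD, n = 18 each) formed a lower step without a clear order. Fmr1 (2.65 ± 1.42, SD, n = 18) and Tia1 (2.02 ± 0.89, SD, n = 18) were the scarcest members and near Dyrk3 itself (1.68 ± 1.19 CPM per kilobase, SD, n = 18), above which Tia1 lay in 11 of the 18 libraries. The lowest count of any member in any library was 50, for Tia1 at 4.4 mg/ml, whereas Dyrk3 rested on 19 to 287 counts.

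Dyrk3 (GRCm38 chromosome 1, 131127455 to 131138340, minus strand) set the frame for the comparison. It had a mean of 2.06 ± 0.97 CPM (SD, n = 6) in suspension and 6.93 ± 3.60 CPM (SD, n = 12) in gels. In collagen it was 3.16-fold higher (95% interval 2.00 to 5.01, quasi-likelihood F-test in edgeR with Benjamini-Hochberg adjusted p = 0.00311, contrasting the mean of the 4 gel groups with that of both suspension groups), and it exceeded both suspension libraries of its own replicate in 11 of 12 gel libraries. The study drew attention to Dyrk3 for its up-regulation in these same data, so this test is not independent evidence of its rise. The members were compared under the same contrast.

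**Figure D1:**
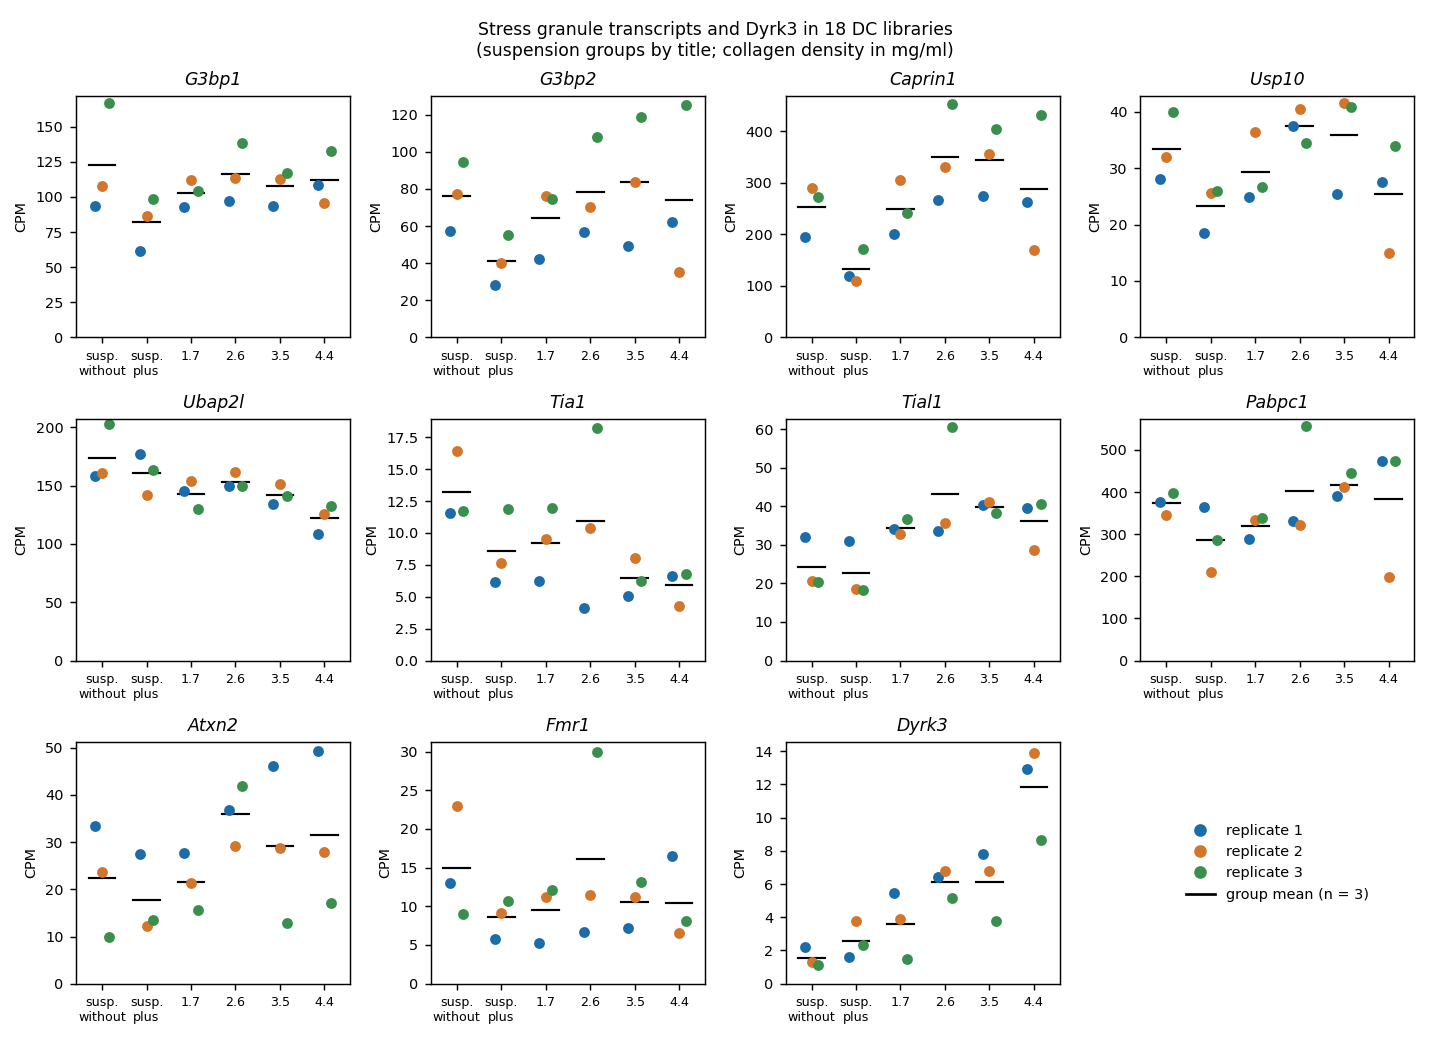
CPM (TMM-scaled counts, linear axis from 0) of the 10 stress granule transcripts and Dyrk3 in each library, by group; points are libraries coloured by replicate number, and bars are group means (n = 3). Tial1 lay at 18.4 to 32.0 CPM in suspension and at 28.8 to 60.7 CPM in gels, whereas G3bp1 overlapped throughout.

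In collagen, 2 of the 10 stress granule transcripts were higher than in suspension at a false discovery rate of 0.1, Tial1 and Caprin1, and none was lower. Among all genes tested, 20.2% passed in either direction and 7.78% were higher, so the share of members that passed was close to that of genes in general. In this fit, which did not pair the libraries, the remaining 8 members had 95% intervals that included no change, with 2 of them, Tia1 and Ubap2l, on the side of lower levels. With the replicate number as a block the intervals of Atxn2 (1.11 to 2.05-fold), G3bp2 (1.02 to 1.69), and Ubap2l (0.701 to 0.999) excluded 1, and Atxn2 passed the adjusted test. The median log2 fold change of the 10 was 0.20, beside 0.0027 for all genes tested. The sign of that median depended on the control, with −0.05 against suspension titled without CCL19 alone and 0.43 against suspension titled plus CCL19 alone.

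The G3BP nucleators did not pass the test. G3bp1 (minimum 92.6, median 110, maximum 138 CPM in the 12 gels, and 61.3, 96.0, and 167 CPM in the 6 suspension libraries) lay in gels entirely inside the range of suspension. Its fold change in collagen was 1.09 (95% interval 0.86 to 1.4, adjusted p = 0.661, edgeR). G3bp2, the paralog with the same role, ranged from 35.4 to 125 CPM in gels with a median of 72.3, and from 28 to 94.4 CPM in suspension with a median of 56.3. Its fold change was 1.34 (95% interval 0.89 to 2.00, adjusted p = 0.346, edgeR), with a positive difference in 3 of 3 replicates, and 0.40 on the log2 scale with an adjusted p of 0.101 when the replicate number was a block. Thus, the interval of G3bp1 ended at a 1.4-fold rise, whereas that of G3bp2 reached 2.00-fold.

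Caprin1 (chromosome 2, 103762941 to 103797649, minus strand) encodes an RNA-binding partner of G3BP that promotes condensation. In suspension titled without CCL19 it had 195, 289, and 272 CPM in replicates 1, 2, and 3, and in suspension titled plus CCL19 119, 110, and 171 CPM. In the gels it had 201, 305, and 241 CPM at 1.7 mg/ml, 267, 331, and 452 CPM at 2.6 mg/ml, 274, 356, and 404 CPM at 3.5 mg/ml, and 262, 169, and 430 CPM at 4.4 mg/ml. The suspension group titled plus CCL19 stood lowest, replicate 2 at 4.4 mg/ml was the lowest gel library, and 6 of 12 gel libraries exceeded every suspension library, so the groups overlapped. In collagen Caprin1 was 1.66-fold higher (95% interval 1.22 to 2.27, adjusted p = 0.0321, edgeR), and the mean log2 difference was 0.71, 0.65, and 0.78 within replicates 1, 2, and 3. This rise depended on the control, a comparison added after seeing the data: the log2 fold change was 0.27 (adjusted p = 0.617) against the suspension libraries titled without CCL19 alone and 1.19 (adjusted p = 0.022) against those titled plus CCL19 alone. Leaving out replicate 1, 2, or 3 gave log2 fold changes of 0.77, 0.76, and 0.69 (adjusted p = 0.109, 0.189, and 0.104, edgeR). The call of Caprin1 was thus lost with each omission. Calls over all genes fell as well, from 2790 of 13844 to 1550 of 13730, 631 of 14106, and 1431 of 13662.

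Usp10 and Ubap2l, which act on G3BP as well, did not pass. Usp10, a deubiquitinase that competes with Caprin1 for G3BP and counteracts granule assembly, ranged from 14.9 to 41.6 CPM in gels (median 34.3) and from 18.6 to 40.0 CPM in suspension (median 27.0). Its fold change was 1.14 (95% interval 0.86 to 1.5, adjusted p = 0.582, edgeR), with a positive difference in 3 of 3 replicates. With the replicate block and offsets for GC content and length together it passed, at a log2 fold change of 0.48 (adjusted p = 0.0617).

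Ubap2l, a scaffold that acts on the G3BP core, had the smallest SD of the members relative to its mean level. In suspension it had 158, 161, and 203 CPM in the group titled without CCL19 and 177, 142, and 163 CPM in the group titled plus CCL19, for replicates 1, 2, and 3. In gels the levels were 145, 154, and 130 CPM at 1.7 mg/ml, 150, 161, and 150 CPM at 2.6 mg/ml, 134, 152, and 141 CPM at 3.5 mg/ml, and 108, 126, and 133 CPM at 4.4 mg/ml. None of the 12 gel libraries was above the highest suspension library and 6 were below the lowest, including all 3 at 4.4 mg/ml. The fold change in collagen was 0.84 (95% interval 0.69 to 1.01, adjusted p = 0.200, edgeR), which did not pass. With the block and offsets for GC content and length the log2 fold change was −0.07, against −0.26 without them. Ubap2l shares its locus with 3 other genes of the table, 1 of them on the same strand, so some of its counts may belong to them.

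The fold changes of the TIA pair differed in sign, and only that of Tial1 passed. Tial1 (TIAR) and Tia1 are closely related RNA-binding proteins with a prion-like domain that bind uridine-rich RNA and repress translation under stress. Tial1 (GRCm38 chromosome 7, 128439777 to 128461717, minus strand) had 32.0, 20.7, and 20.3 CPM in suspension titled without CCL19 and 30.9, 18.7, and 18.4 CPM in suspension titled plus CCL19, in replicates 1, 2, and 3. In gels it had 34.0, 32.7, and 36.7 CPM at 1.7 mg/ml, 33.6, 35.8, and 60.7 CPM at 2.6 mg/ml, 40.4, 41.2, and 38.2 CPM at 3.5 mg/ml, and 39.6, 28.8, and 40.6 CPM at 4.4 mg/ml. The suspension libraries of replicate 1 were high, 11 of 12 gel libraries exceeded every suspension library, and 12 of 12 exceeded both suspension libraries of their own replicate number, a pattern found upward in 2.43% and downward in 4.19% of all genes tested. The fold change in collagen was 1.63 (95% interval 1.24 to 2.15, adjusted p = 0.0202, edgeR).

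The rise of Tial1 had the same sign in 3 of 3 replicates, with mean log2 differences of 0.23, 0.80, and 1.15. It was of similar size against either suspension group, with log2 fold changes of 0.66 (adjusted p = 0.141) against that titled without CCL19 and 0.76 (adjusted p = 0.0681) against that titled plus CCL19. Without replicate 1 it was 1.03 (adjusted p = 0.0277), and without replicates 2 and 3 it was 0.67 and 0.48 and no longer passed (adjusted p = 0.215 and 0.216, edgeR). Over all genes 2790 of 13844 were called with every replicate. Without replicate 1, 2, or 3 these calls were 1550 of 13730, 631 of 14106, and 1431 of 13662.

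Tia1 (chromosome 6, 86404219 to 86433405, plus strand) had 11.6, 16.4, and 11.7 CPM in suspension titled without CCL19 and 6.18, 7.65, and 11.9 CPM in suspension titled plus CCL19, in replicates 1, 2, and 3. In gels it had 6.24, 9.53, and 11.9 CPM at 1.7 mg/ml, 4.14, 10.4, and 18.2 CPM at 2.6 mg/ml, 5.07, 8.01, and 6.25 CPM at 3.5 mg/ml, and 6.63, 4.27, and 6.74 CPM at 4.4 mg/ml. The groups overlapped, replicate 3 at 2.6 mg/ml was the highest library of all, and the 3 libraries at 4.4 mg/ml were all below the median of suspension, 11.6 CPM. The fold change in collagen was 0.74 (95% interval 0.50 to 1.10, adjusted p = 0.315, edgeR), with a negative difference in 3 of 3 replicates. With offsets for GC content and length the log2 fold change was −0.58 and passed (adjusted p = 0.0397), and with these and the replicate block it was −0.56 (adjusted p = 0.00677). With these offsets 20.3% of all genes passed, and 37% with the block added.

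The ratio of Tial1 to Tia1 counts within a library, a description chosen after seeing the values, was 2.46 ± 1.37 (SD, n = 6) in suspension and 5.40 ± 1.77 (SD, n = 12) in gels. In replicate 1 it was 2.76 and 5.00 in suspension and 5.46 to 8.10 in gels, in replicate 2 1.26 and 2.44 against 3.44 to 6.74, and in replicate 3 1.74 and 1.55 against 3.07 to 6.11. Within each replicate all 4 gel libraries were above both suspension libraries. The ratio is free of library scaling but shows only that the transcripts changed unequally.

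Sequence before a RefSeq start of Tial1 and of Caprin1, the members called higher, is shown beside that of Tia1, whose difference had the opposite sign. The Caprin1 stretch lies before its RefSeq start but inside the longer GENCODE span of the gene given above, outside its exons, whereas the other stretches begin just outside their genes. The bases are RefSeq promoter windows (GRCm38.p6) in the direction of transcription, up to 250 bases before the annotated start and trimmed where an annotated exon begins, at chr7:128461718-128461923 (minus strand), chr2:103797105-103797328 (minus strand), and chr6:86403969-86404218 (plus strand). Capitals mark GC boxes (GGGCGG on either strand, a binding motif of Sp family factors), which may overlap.
Tial1: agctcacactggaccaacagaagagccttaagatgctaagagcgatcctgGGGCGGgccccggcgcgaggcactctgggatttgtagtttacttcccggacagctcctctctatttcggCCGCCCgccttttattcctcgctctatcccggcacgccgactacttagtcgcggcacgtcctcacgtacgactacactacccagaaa
Caprin1: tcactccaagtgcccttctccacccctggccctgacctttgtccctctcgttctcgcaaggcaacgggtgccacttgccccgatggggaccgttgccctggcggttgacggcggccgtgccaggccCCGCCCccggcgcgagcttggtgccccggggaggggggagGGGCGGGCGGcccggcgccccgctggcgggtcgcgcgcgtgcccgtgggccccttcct
Tia1: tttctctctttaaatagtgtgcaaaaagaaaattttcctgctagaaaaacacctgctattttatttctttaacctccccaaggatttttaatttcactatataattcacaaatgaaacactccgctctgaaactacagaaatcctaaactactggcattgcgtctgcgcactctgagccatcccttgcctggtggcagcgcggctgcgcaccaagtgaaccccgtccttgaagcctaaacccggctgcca
The Tial1 stretch held 2 GC boxes, the Caprin1 stretch 3, and the Tia1 stretch none, and 44.0% of the Tia1 bases were G or C, against 57.8% and 75.9%. Over whole windows of 250 bases, of which 9 members had 15 in all, 10 of 15 held a GC box, beside 32.7% of 32851 windows of all genes, although a second window of Tial1 held none. An E-box (CACGTG) was in 5 of 15 windows, those of Atxn2, Fmr1, and Ubap2l (6.02% of all windows). None of the 15 held the letters of a heat shock element (GAANNTTC, 6.69%) or a cyclic AMP response element (TGACGTCA, 1.55%). A CCAAT box (CCAAT) was in 2 of 15 (33.8%), and an NF-kB-like motif, GGG and CC with 5 bases between them, in 10 of 15 (45.8%). All motifs were searched on both strands, and windows of a gene can overlap. These matches describe letters in the windows and not bound sites.

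Pabpc1, Atxn2, and Fmr1, which bind mRNA or its poly(A)-binding protein, did not pass without the block. Pabpc1, which coats poly(A) tails, ranged from 198 to 556 CPM in gels (median 364) and from 211 to 397 CPM in suspension (median 354.0), a fold change of 1.16 (95% interval 0.86 to 1.55, adjusted p = 0.544, edgeR). Atxn2, which binds Pabpc1, ranged from 12.9 to 49.3 CPM in gels (median 28.4) and from 9.85 to 33.3 CPM in suspension (median 18.6). Its libraries separated by replicate number as much as by condition, with replicate 1 highest in every group but at 2.6 mg/ml.

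Atxn2 was above both suspension libraries of its replicate in 9 of 12 gel libraries and below both in none. The fold change was 1.46 (95% interval 0.92 to 2.33, adjusted p = 0.281, edgeR) without a block and passed with it, at a log2 fold change of 0.60 (standard error 0.21, adjusted p = 0.0435). With the block 3 of 10 members were called, beside 34.8% of all genes. Atxn2 overlaps 4 other genes of the table, 2 of them on its own strand. Fmr1, a translational repressor that associates with polysomes, had medians of 11.2 CPM in gels and 9.95 CPM in suspension and a fold change of 1.01 (95% interval 0.62 to 1.62, adjusted p = 0.992, edgeR), with signs that differed between replicates (−0.11, −0.55, and 0.51 on the log2 scale).

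**Figure D2:**
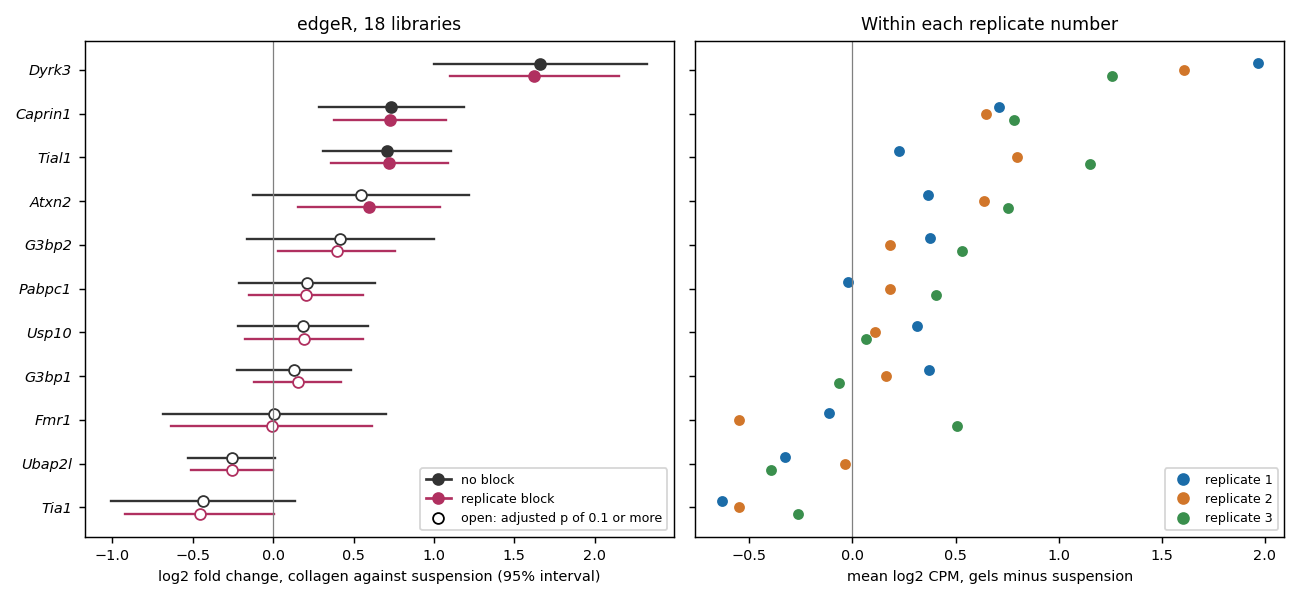
Left, log2 fold change of each transcript, collagen against suspension, with 95% intervals from edgeR without (black) and with (red) the replicate number as a block, filled where the adjusted p was under 0.1. Right, mean log2 CPM of gels minus suspension within each replicate number. Dyrk3, Caprin1, Tial1, Atxn2, G3bp2, and Usp10 lay right of 0 and Tia1 and Ubap2l left of it in 3 of 3 replicates. The block moved Atxn2 past the threshold.

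By density, Tial1 and Caprin1 were called at 2.6 mg/ml only, or from 2.6 mg/ml upwards with the replicate block. At 1.7 mg/ml 0 of 10 members passed (0.0361% of all genes did). An unadjusted p under 0.05 was found in 1 member, Tial1, and in 1113 of 13844 genes. At 2.6 mg/ml Tial1 (log2 fold change 0.88, adjusted p = 0.0626) and Caprin1 (0.93, adjusted p = 0.0800) were higher, 2 of 10 members beside 7.87% of all genes, of which 4.29% were higher and 3.58% lower. Without replicate 3 at 2.6 mg/ml, the deepest library, these values were 0.59 and 0.73 and did not pass (adjusted p = 0.356 and 0.349, edgeR). Over all genes 63 of 14185 passed then. Both calls were lost without replicate 2 as well, where 0 of 14106 genes passed.

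At 3.5 mg/ml 0 of 10 passed (4.9% of all genes), and at 4.4 mg/ml, where Dyrk3 was highest (11.8 ± 2.81 CPM, SD, n = 3, log2 fold change 2.56, adjusted p = 0.00156), 0 of 10 passed as well (14.8% of all genes). The corresponding numbers of members with an unadjusted p under 0.05 were 2 and 4, beside 2437 and 3434 of 13844 genes. DESeq2 called 2 members at each of these densities, beside 10.5% and 20.3% of all genes. At 3.5 mg/ml these were Tial1 and Caprin1, both higher. At 4.4 mg/ml they were Tial1, higher, and Ubap2l, lower (adjusted p = 0.0551 and 0.0975, DESeq2), whereas Caprin1 did not pass (0.101). With the replicate block 2 passed at 3.5 mg/ml (18.4% of all genes), Tial1 and Caprin1 (adjusted p = 0.0351 and 0.0149, edgeR), and 4 at 4.4 mg/ml (31.9%). These 4 were Tial1 (log2 fold change 0.63, adjusted p = 0.0557) and Caprin1 (0.62, adjusted p = 0.0528), which were higher (15.8% of all genes), and Tia1 (−0.80, adjusted p = 0.0869) and Ubap2l (−0.45, adjusted p = 0.0708), which were lower (16.2%). With GC and length offsets added to the block the value of Ubap2l was −0.19 and its call was lost (adjusted p = 0.513), whereas Atxn2 passed (0.79, adjusted p = 0.00422), again 4 of 10 beside 34.8% of all genes. At 2.6 mg/ml 3 members passed with the block (21.6%), Atxn2 being added with a log2 fold change of 1.05 (adjusted p = 0.0206).

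The slope over the 4 collagen densities passed in 0 of 10 members and in 0.00722% of all genes. An unadjusted p under 0.05 was found in 0 members and in 997 of 13844 genes. With the block the slope passed in 0 members and 1.45% of all genes. Tia1 had the steepest slope, −0.30 on the log2 scale per mg/ml (95% interval −0.64 to 0.03), and Tial1 the flattest, 0.01 (95% interval −0.21 to 0.23). Dyrk3 had a slope of 0.57 per mg/ml (95% interval 0.22 to 0.93, adjusted p = 0.415), which passed with the block (0.59, adjusted p = 0.0588).

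**Figure D3:**
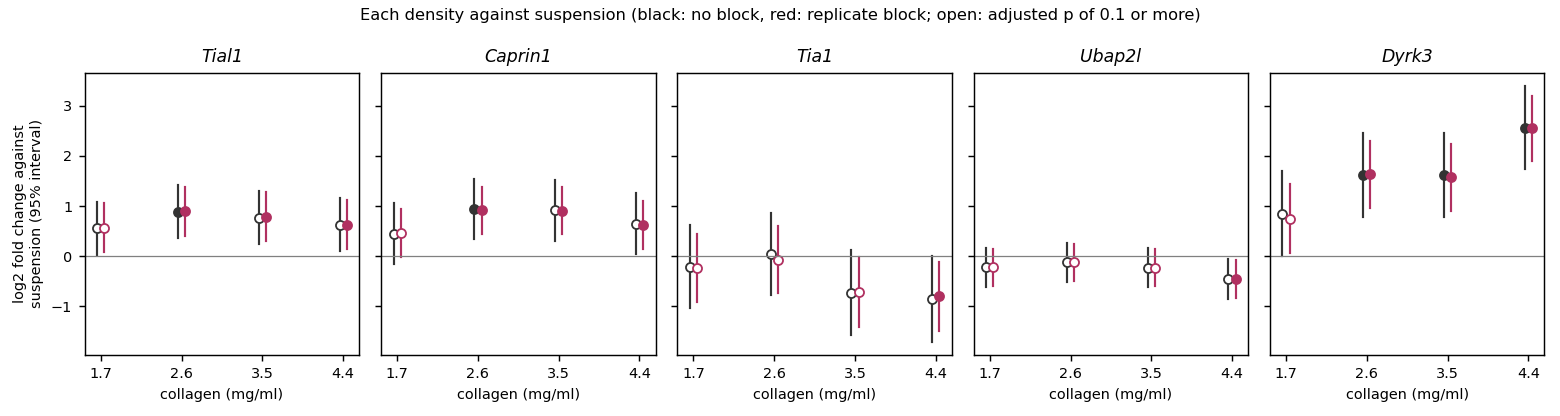
Log2 fold change against suspension at each collagen density (mg/ml) for Tial1, Caprin1, Tia1, Ubap2l, and Dyrk3, with 95% intervals from edgeR without (black) and with (red) the replicate block, filled where the adjusted p was under 0.1. The values of Tial1 stayed between 0.55 and 0.88 without the block, whereas those of Dyrk3 went from 0.85 at 1.7 mg/ml to 2.56 at 4.4 mg/ml.

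Between the suspension groups, 0 of 10 members passed, as did 0% of all genes. All 10 had smaller fitted levels in the group titled plus CCL19, with a median log2 difference of −0.55 beside −0.0031 for all genes. An unadjusted p under 0.05 was found in 2 members, beside 855 of 13844 genes. These members were Caprin1 (−0.92, 95% interval −1.64 to −0.20, adjusted p = 0.761, edgeR) and G3bp1 (−0.58, adjusted p = 0.761, edgeR). DESeq2 found 0 members past the threshold and 2 at that unadjusted p, beside 1020 of 13827 genes. With offsets for GC content and length 6 of 10 were lower and the median was −0.03. In GC content 8 of the 10 members lay below the median of 49.9% of all genes tested.

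The levels of the members were then set against that of Dyrk3 across the 18 libraries. Over all genes 20.5% correlated with Dyrk3 past a false discovery rate of 0.1 in a permutation test of Pearson's r on log2 CPM, and 3 of 10 members did. The permutations exchanged libraries freely, although libraries share groups and replicate numbers. Their p-values thus treat the 18 libraries as independent, which they are not. Ubap2l fell as Dyrk3 rose (r = −0.70, permutation p = 0.00097, adjusted over all genes 0.0162, Spearman's rho = −0.61, permutation p = 0.00799). Its r was −0.92, −0.65, and −0.57 within replicates 1, 2, and 3, and −0.59 without the 2 libraries farthest from the median of Dyrk3, both of them suspension titled without CCL19. No correlation was run with GC and length offsets. With these offsets the log2 fold change of Ubap2l in collagen was −0.09 (adjusted p = 0.791, edgeR), against −0.26 without them. Tia1 also fell (r = −0.59, permutation p = 0.0104, adjusted p = 0.0669, rho = −0.57 with permutation p = 0.0148), with −0.47, −0.88, and −0.33 within replicates and −0.48 without these libraries.

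Atxn2 rose with Dyrk3 (r = 0.55, permutation p = 0.0200, adjusted p = 0.0984, rho = 0.58 with permutation p = 0.0133), with 0.78, 0.39, and 0.56 within replicates and 0.47 without the 2 farthest libraries. It no longer passed with a prior count of 0.5 (permutation adjusted p = 0.1001). Tial1 had r = 0.51 (permutation p = 0.0302, adjusted p = 0.127, rho = 0.55 with permutation p = 0.0207), and 0.87, 0.56, and 0.65 within replicates, but 0.31 without the 2 farthest libraries. With the replicate block Tial1 passed (r = 0.58, permutation adjusted p = 0.0457), which made 4 of 10 members beside 33.6% of all genes. Caprin1 had r = 0.24 (permutation p = 0.332, adjusted p = 0.536), with a negative r of −0.12 in replicate 2. The 5 other members had r between −0.17 and 0.03, with adjusted p from 0.695 to 0.986. Without replicate 1, 0 of 10 members passed (8% of all genes), and without replicate 2 or 3 only 1 did (12.5% and 14.7%), Ubap2l in both cases.

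The 18 libraries hold both gels and suspension, so these relations include the difference between them. Within the 12 gel libraries 0 of 10 members passed, beside 1.96% of all genes. An unadjusted permutation p under 0.05 was found in 1 member and in 2241 of 13843 genes. This member was Atxn2 (r = 0.58, permutation p = 0.0445, adjusted p = 0.298, rho = 0.51 with permutation p = 0.0923). There Ubap2l had r = −0.34 (permutation adjusted p = 0.544) and Tia1 −0.52 (adjusted p = 0.366). Tial1 had −0.10 (permutation adjusted p = 0.866, rho = 0.06), and Caprin1 −0.16 (adjusted p = 0.797). Thus, among the gels the adjusted test left no member past the threshold.

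**Figure D4:**
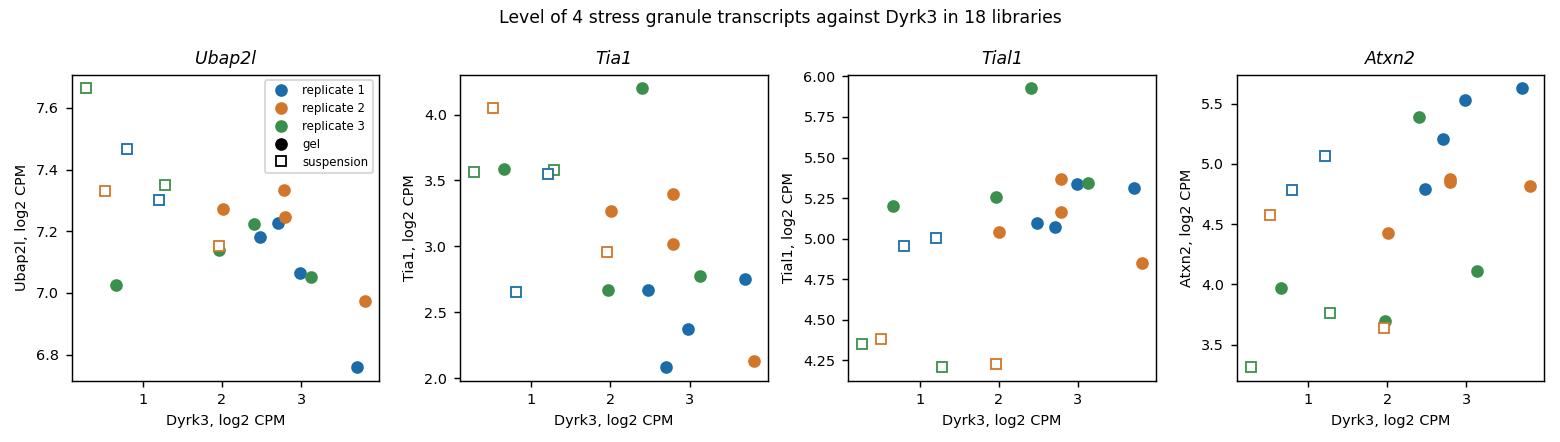
Log2 CPM of Ubap2l, Tia1, Tial1, and Atxn2 (y axes) against log2 CPM of Dyrk3 (x axes) in 18 libraries, coloured by replicate number, with gels as filled circles and suspension as open squares. Ubap2l declined along Dyrk3 (r = −0.70, without GC and length offsets), whereas for Tial1 the gels formed a level band above the suspension libraries of replicates 2 and 3.

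Other genes of stress granule biology were examined as lists chosen by name, described by counts and medians without a test of the list. The counts in collagen stand beside 7.78% of all genes tested that were higher and 12.4% that were lower. Of 8 genes listed as paralogs or wider relatives of the members, 4 were higher and 1 lower in collagen (median log2 fold change 0.60). The nuclear poly(A)-binding protein Pabpn1 had 4.57 ± 1.3 CPM (SD, n = 6) in suspension and 10.2 ± 5.52 CPM (SD, n = 12) in gels (log2 fold change 1.11, adjusted p = 0.0163), and the Fmr1 paralogs Fxr1 and Fxr2 rose by 0.79 and 0.62 on that scale (adjusted p = 0.0924 and 0.0682), although Fmr1 itself did not pass. Pabpc4, a cytoplasmic poly(A)-binding protein, rose by 0.59 (adjusted p = 0.0503). Ubap2, the paralog of Ubap2l and the only lower gene, named after its value was seen, fell by 0.47 (adjusted p = 0.0797). All adjusted p here are from edgeR. Of 14 alternatives, 7 lost the call of Fxr1, 6 that of Fxr2, and 7 that of Pabpc4.

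Of 26 other stress granule proteins, 11 were higher and 1 lower (median 0.51). The cap-binding protein Eif4e rose by 1.42 on the log2 scale (adjusted p = 0.00384), from 28.6 ± 7.0 CPM (SD, n = 6) to 77.0 ± 32.5 CPM (SD, n = 12). The RNA helicase Ddx3x rose by 1.27 (adjusted p = 0.00479), Nufip2, an RNA-binding partner of Roquin, by 1.01 (adjusted p = 0.0323), and Eif4g2, an initiation factor used in cap-independent translation, by 0.90 (adjusted p = 0.00951).

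Among 11 tested genes for granule clearance, 4 were higher and 0 lower (median 0.31), and Hspb8 was too low to be tested. The inducible chaperones Hspa1b and Hspa1a rose by 3.67 and 2.78 on the log2 scale (adjusted p = 0.00103 and 0.000515), but these genes are nearly identical, so the split of reads between them is uncertain. Hspa1b had 3.78 ± 2.88 CPM (SD, n = 6) in suspension and 51.7 ± 35.1 CPM (SD, n = 12) in gels. The constitutive chaperone Hspa8 rose by 0.82 (adjusted p = 0.0661) and its co-chaperone Bag3 by 0.56 (adjusted p = 0.0424).

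Of 6 kinases and phosphatase regulators of eIF2α, the translation factor whose phosphorylation sets off granule assembly, 0 passed in either direction (median −0.03). With the replicate block 2 of them were higher and 0 lower, beside 2158 higher and 2665 lower of 13844 genes. The median of this list was 0.17 with GC and length offsets. Of 14 processing body proteins, which form the sister condensates of RNA decay, 0 were higher and 1 lower, the decapping cofactor Dcp1b (−0.61, adjusted p = 0.0993, median of the list −0.18). The Dcp1b call was lost in 12 of 14 alternatives. With GC and length offsets the list had 3 higher and 1 lower, or 5 and 1 with the block as well. All genes passed at 20.3% and 37% in either direction in these 2 settings. Of 13844 genes, 1340 were higher and 1465 lower with the offsets, and 2611 and 2512 with the block as well. Of 7 proteins that bind AU-rich or stem-loop elements, 1 was higher, Rc3h1 (Roquin-1, 1.08, adjusted p = 0.0125, median 0.10). At 4.4 mg/ml the counts of higher and lower genes were 1 and 0 of 8 paralogs or relatives, 9 and 1 of 26 other stress granule proteins, 3 and 0 of 11 clearance factors, 0 and 2 of 14 processing body proteins, 1 and 0 of 6 eIF2α regulators, and 1 and 0 of 7 AU-rich element binders, beside 6.55% and 8.29% of all genes.

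**Figure D5:**
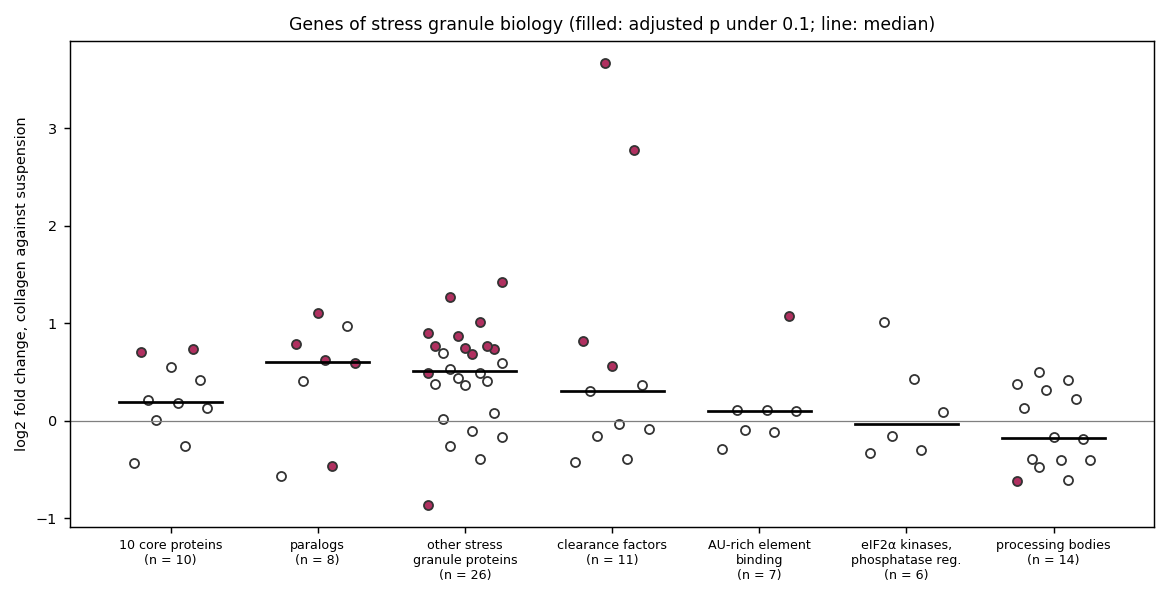
Log2 fold change, collagen against suspension, of each tested gene in the lists of stress granule biology; each point is a gene, filled where the adjusted p from edgeR was under 0.1, and bars are medians. The 26 other stress granule proteins had a median of 0.51 with 11 higher, and the 10 core proteins a median of 0.20 with 2 higher. Of all genes tested, 7.78% were higher.

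Across the 18 libraries, the genes whose log2 CPM was most like that of G3bp1 were Cnn3 (r = 0.91), Mtrex (0.88), Nars (0.88), Swap70 (0.87), and Cyp51 (0.87). The single closest gene was Cse1l for G3bp2 (0.97), Cul1 for Caprin1 (0.96), Cdc25a for Usp10 (0.89), and Gpatch2l for Ubap2l (0.89). It was Rnf152 for Tia1 (0.94), Rabggtb for Tial1 (0.94), Tank for Pabpc1 (0.90), Arid5b for Atxn2 (0.97), and Rasa1 for Fmr1 (0.95). These values are maxima over all genes tested, and the points share replicate batches. No member had another member as its closest gene.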

How the data were processed

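RNA-seq libraries of DCs (stranded poly(A) kit, 50-base single-end reads) were aligned by the authors with STAR 2.7.0f to GRCm38, per the labels, and whole-number counts per Ensembl gene were deposited. The authors computed TPM with RSEM, but which program made the deposited whole-number counts, and how multi-mapping reads were handled in them, is not given in the sources used here, so counts of near-identical genes are uncertain. Samples were grouped by title.

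From the deposited counts, 1 fit over all 18 libraries (R 4.3.3, edgeR 4.0.16; filterByExpr, TMM, quasi-likelihood F-test, Benjamini-Hochberg over 13844 genes, FDR 0.1) gave 7 comparisons. Levels are CPM on TMM-scaled library sizes, logged after adding a prior count of 2. Correlations used Pearson's r, Spearman's rho, and two-sided permutation tests with 100000 draws (Python 3.11.15), adjusted over all genes, whereas adjustment over the 10 members had been planned. The draws exchanged libraries across groups and replicate numbers, also where replicate means had been subtracted for the block. In the smallest library 3 counts correspond to 0.23 CPM, which covers counting error only. The fit was also run on simulated counts whose set spread was smaller than that of these data, so that run does not show how it performs here.

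Same-numbered libraries carry a common date and lane in their names, so the numbers were taken as pairs. Deviations from group means correlated with a mean r of 0.43 within a number (45 pairs, −0.15 to 0.85) and −0.21 between numbers. The titles call the replicates biological, without saying whether they came from separate mice. The coefficient of biological variation was 49.0%, and 33.1% with the block. Alternatives were the replicate block, DESeq2 1.42.0 and its size factors, no filter, GC and length offsets (loess), omission of each replicate number, only the groups compared, and FDR 0.05. Each suspension group alone as control and the omission of single libraries were added after seeing the data.

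The members and lists were chosen with earlier results of these data known. Named genes were all members, Dyrk3, up to 4 called genes per list whose replicates all shared a sign, and the closest genes by r. Gene positions came from GENCODE M21, and promoter windows from RefSeq for 9 of 10 members. The values of 1 gene counted in the lists are not reported here.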

Additional observations from a re-analysis of the deposited data

How the results depend on the processing

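Of the single-gene values under the alternatives, 601 kept direction and side of the threshold, 40 gained the call, 95 lost it, and 33 reversed. Tial1 and Caprin1 stayed higher in collagen under every alternative run, but not always past the threshold.

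The number of members called in collagen (2) was 5 with the replicate block plus GC and length offsets, 0 against suspension titled without CCL19 alone, and 0 to 2 when a replicate or library was left out. Calls over all genes in collagen went from 2790 of 13844 to 5123 with the block plus offsets and 1164 against that control. Without replicate 1, 2, or 3 they were 1550 of 13730, 631 of 14106, and 1431 of 13662. The omission of single libraries gave 2958 of 14368 and 2669 of 14185. At 1.7 mg/ml (0, beside 5 of 13844 genes) it was 1 with the block plus offsets, beside 620 genes. At 2.6 mg/ml (2) it was 4 with the block plus offsets, 0 with no filter, with offsets, with only the groups compared, against suspension titled without CCL19 alone, and at FDR 0.05, and 0 to 2 with a replicate or library left out. All genes called there went from 1090 of 13844 to 3374 with the block plus offsets, 1120 with offsets, and 444 at FDR 0.05. They were 1228 of 29875 with no filter, 262 of 13261 with only the groups compared, and 35 against suspension titled without CCL19 alone. Without replicate 1, 2, or 3 they were 1318 of 13730, 0 of 14106, and 4 of 13662. The omission of single libraries gave 1154 of 14368 and 63 of 14185. At 3.5 mg/ml (0) it was 2 with the block, with DESeq2 size factors, and with the DESeq2 test, 4 with the block plus offsets, 1 against suspension titled plus CCL19 alone, and 0 to 2 with a replicate or library left out. At 4.4 mg/ml (0) it was 4 with the block, 1 with DESeq2 size factors, 2 with the DESeq2 test, 2 with offsets, 4 with the block plus offsets (Atxn2 in place of Ubap2l), 1 against suspension titled plus CCL19 alone, and 0 to 1 with a replicate or library left out. All genes called there went from 2054 of 13844 to 4420 with the block, 2067 with DESeq2 size factors, and 2808 of 13827 with DESeq2. They were 2320 with offsets, 4818 with the block plus offsets, and 1398 against suspension titled plus CCL19 alone. Without replicate 1, 2, or 3 they were 1615 of 13730, 106 of 14106, and 946 of 13662. The omission of single libraries gave 1457 of 14368 and 2304 of 14185. The number correlated with Dyrk3 (3) was 4 with DESeq2 size factors, 4 with the block, 2 with a prior count of 0.5, 0 in the gels, and 0 to 1 without a replicate. Of all genes 20.5% correlated, 20.9% with DESeq2 size factors, 33.6% with the block, 20.0% with that prior count, and 1.96% in the gels. Without replicate 1, 2, or 3 these shares were 8.0%, 12.5%, and 14.7%. The block moved the calls over all genes in collagen from 2790 to 4823. Beyond the calls given with the results, the replicate block changed no member's call.

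Of the reversed log2 fold changes, only that of Tia1 at 2.6 mg/ml with the block plus offsets passed (adjusted p = 0.0585, edgeR). Against suspension titled without CCL19 alone, collagen gave −0.16 for G3bp1, −0.029 for G3bp2, −0.074 for Usp10, and −0.40 for Fmr1, 1.7 mg/ml gave −0.016 for Caprin1, 2.6 mg/ml −0.27 for Tia1, and 4.4 mg/ml −0.13 for G3bp1 and −0.040 for G3bp2. Against suspension titled plus CCL19 alone, Tia1 had 0.11 at 1.7 mg/ml, and Usp10 0.13 and Fmr1 0.29 at 4.4 mg/ml. Fmr1 in collagen had −0.0090 with the block, −0.019 with no filter, −0.14 with offsets, −0.14 with both, and −0.29 to 0.32 with a replicate or library left out. Tia1 at 2.6 mg/ml had −0.071 with the block, −0.61 with offsets, −0.60 with both, and −0.53 to −0.44 without replicate 3 or its 2.6 mg/ml library. At 4.4 mg/ml, Usp10 had 0.23 with offsets, 0.22 with both, and −0.28 to 0.16 with a replicate or library left out, and Fmr1 had 0.0043 with the block and −0.71 to 0.39 with a replicate or library left out. In the gels r with Dyrk3 was −0.10 for Tial1 and −0.16 for Caprin1 (permutation adjusted p = 0.866 and 0.797). The cause was not tested.

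The fit restricted to the groups compared was not run for collagen against suspension, which uses all libraries. The controls from a single suspension group and the omission of single libraries were chosen after seeing the data. With 3 libraries a group, the intervals given with each member show which differences could not be detected.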
